A study of Rattus norvegicus with 6 samples.

Results

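The genes of cholesterol and fatty acid synthesis were followed in the ipsilateral lumbar spinal cord of rats with bone cancer pain (BCP) and of sham-operated rats. The members were 32 genes, taken by name from the 30957 genes of the deposited table, and they comprised sterol pathway enzymes, the SREBP proteins that control them, lipogenic enzymes and a pair of sterol exporters. They occupied 33 rows of the table, since Elovl6 was listed at a pair of neighboring loci, and all 33 rows passed the filter on low counts. The comparison asked which of these genes differed in level between BCP and sham spinal cord on day 14.

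RNA-seq was performed on 6 libraries of Wistar rats, 3 from BCP rats and 3 from sham-operated rats. In BCP rats living Walker 256 cells, a rat mammary carcinoma line, had been placed into the marrow cavity of the left tibia, and sham rats had received heat-killed cells of the same line, so both groups had undergone the surgery and both had been exposed to tumor cell material. The labels name the strain, the tissue and the time and give no genetic modification in either group, and the paper describes adult females. The tissue was the side of the lumbar enlargement ipsilateral to the tibia, taken without its meninges, and the cells had not been placed into it. Nothing in the labels states that each library came from a separate animal, so p-values measure the spread between these libraries. The libraries held 11779485 to 15004290 counts on genes, of which the members took 0.653% to 0.691% in the sham libraries and 0.569% to 0.574% in the BCP libraries. The lowest count of a member in any library was 68 and the highest was 15995, so counting error was small for most members. Defining markers of spinal cord glia and neurons were abundant in every library, whereas the summed CPM of the 9 adipocyte markers was at most 10.3 and that of the skeletal muscle markers at most 5.93 in any library. Markers of meninges and fibroblasts summed to 309 to 385 CPM over the libraries, and those of Schwann cells and nerve root to 118 to 128 CPM.

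Cholesterol is built from acetyl-CoA through mevalonate, isoprenoid units and squalene, and nearly all cholesterol of the central nervous system is made locally because lipoproteins of the blood do not cross its barrier. Most of that cholesterol lies in myelin, which oligodendrocytes make, and astrocytes supply sterol to neurons. The pathway is controlled by SREBP transcription factors, which SCAP escorts from the endoplasmic reticulum to the Golgi apparatus when sterol is scarce and INSIG proteins retain when it is plentiful, whereas LXR receptors, activated by oxysterols, turn on the exporters ABCA1 and ABCG1. SREBP-2 acts mainly on sterol genes and SREBP-1 mainly on fatty acid genes.

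In the BCP libraries 22 of the 33 rows were lower in edgeR's quasi-likelihood test (p-value under 0.05 after Benjamini-Hochberg adjustment over all genes), and none was higher. Of all 14908 genes tested 12.1% were lower and 15.8% were higher by the same rule, against 66.7% of the member rows lower. Those shares rest on 1805 genes lower and 2352 higher, which became 2401 and 2134 with upper-quartile scaling and 1257 and 2673 with library size only, whereas the members lower numbered 19 to 25 over all alternatives. The changes were small, with falls from 9.40% to 31.6% among the 22 rows called and a median of 18.8%. No member passed the study's second threshold of a fold change over 2. Of all genes tested 0.107% passed both thresholds in the lower and 6.35% in the higher direction. For 25 member rows (75.8%) each BCP value was smaller than each sham value, against 19.8% of all genes tested, and for no member row was each larger, against 21.7%. All of the 22 called rows were among those 25, and the other 3 were Insig1, Srebf2 and Fads2. The median log2 fold change (log2FC) of the members was -0.24, beside -0.01 over all genes tested, and it ranged from -0.20 to -0.27 over the alternative settings. Enzymes made up nearly all of the calls, with 16 of 18 sterol enzymes and 5 of 7 rows of fatty acid enzymes, against 1 of 6 regulators and transporters and neither of the exporters.

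**Figure D1:**
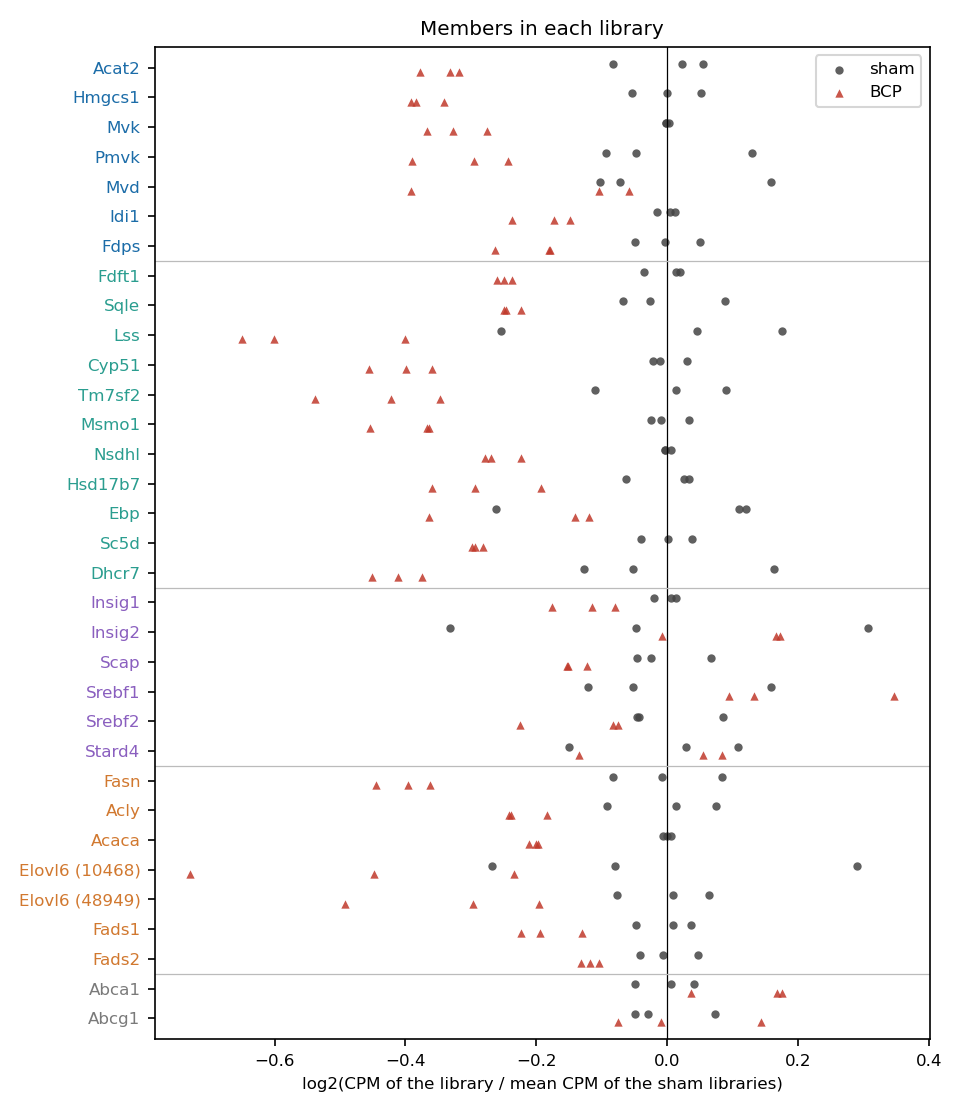
Level of each member in each library, as the log2 ratio of its CPM (counts scaled to the TMM-adjusted library total) to the mean of the 3 sham libraries, with sham libraries as circles and BCP libraries as triangles. Names are colored by role, from the top sterol enzymes up to farnesyl pyrophosphate, sterol enzymes from squalene on, SREBP control and transport, fatty acid synthesis and efflux, and the 2 rows of Elovl6 carry the last digits of their identifiers. The BCP libraries lie left of the sham libraries in 25 of 33 rows.

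The start sites of the members were read from RefSeq windows on GRCr8, each with 250 bases before and 50 bases after an annotated start. RefSeq windows were matched by symbol for 24 of the 32 members, 25 windows in all with a pair for Srebf1, and Pmvk, Fdft1, Sqle, Stard4, Fasn, Acaca, Elovl6 and Abcg1 were not matched. CCAAT, the letters bound by NF-Y, a known partner of SREBP, was found on either strand in 19 of the 25 windows (76.0%), against 36.5% of the 11609 windows of genes tested. GGGCGG, the GC box, was found in 22 of the 25 windows (88.0%) against 59.6%. CACGTG, an E-box, occurred in 4 of the 25 (16%) against 8.77%, and the sterol regulatory element written as TCACNCCAC in 0 of the 25 against 1.08%. Its shorter core CACNCCAC, which lies within those letters, occurred in 4 of the 25 windows (16%) against 5.86%. The CCAAT letters were as frequent in members that were called lower, with 12 of 16 genes, as in members that were not, with 6 of 8 genes. These matches describe letters in a window and not bound sites. Sterol regulatory elements spelled otherwise, or lying outside the windows, were not searched. Of the windows 4 are shown, with CCAAT or its reverse complement in capitals: Hmgcs1 as the most abundant member, Lss as the member with the largest called fall, Cyp51 as the called member with the smallest p-value, which had no CCAAT, and Insig1 as a regulator with CCAAT that was not called. In GRCr8 they lie at chr2:53382054-53382353 on the plus strand, chr20:12118181-12118480 on the minus strand, chr4:30991443-30991742 on the plus strand and chr4:8057720-8058019 on the minus strand, and each is written 5′ to 3′ in the direction of its gene.
Hmgcs1: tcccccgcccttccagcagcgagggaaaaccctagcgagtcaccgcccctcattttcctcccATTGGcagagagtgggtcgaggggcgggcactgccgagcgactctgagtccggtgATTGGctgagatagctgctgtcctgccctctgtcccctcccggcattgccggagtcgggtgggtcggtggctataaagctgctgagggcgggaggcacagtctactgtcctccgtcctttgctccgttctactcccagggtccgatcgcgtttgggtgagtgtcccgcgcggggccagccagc
Lss: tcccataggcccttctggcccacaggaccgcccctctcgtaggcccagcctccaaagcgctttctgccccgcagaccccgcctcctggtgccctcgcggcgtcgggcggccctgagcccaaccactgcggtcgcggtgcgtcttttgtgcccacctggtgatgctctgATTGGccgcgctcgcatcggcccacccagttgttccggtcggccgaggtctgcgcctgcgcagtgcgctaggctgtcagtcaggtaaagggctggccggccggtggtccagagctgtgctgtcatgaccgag
Cyp51: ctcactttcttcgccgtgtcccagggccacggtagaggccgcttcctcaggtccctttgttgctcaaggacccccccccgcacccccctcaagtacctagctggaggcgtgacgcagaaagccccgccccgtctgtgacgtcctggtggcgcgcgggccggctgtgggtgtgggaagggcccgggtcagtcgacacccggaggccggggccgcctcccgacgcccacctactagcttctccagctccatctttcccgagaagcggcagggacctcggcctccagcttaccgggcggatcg
Insig1: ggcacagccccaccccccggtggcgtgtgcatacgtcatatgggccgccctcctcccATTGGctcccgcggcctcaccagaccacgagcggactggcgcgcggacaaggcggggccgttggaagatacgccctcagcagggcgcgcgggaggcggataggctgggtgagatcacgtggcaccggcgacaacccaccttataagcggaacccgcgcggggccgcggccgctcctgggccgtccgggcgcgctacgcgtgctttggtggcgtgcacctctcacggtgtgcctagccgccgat

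Of the 7 member enzymes that lead from acetyl-CoA to farnesyl pyrophosphate, 6 fell and the remaining one, Mvd, did not pass the test. The median log2FC was -0.31 over the 7. Hmgcs1 (chromosome 2, 52431601 to 52445055, Rnor_6.0), which condenses acetyl-CoA with acetoacetyl-CoA to HMG-CoA, had 1079, 1117 and 1038 CPM in sham libraries 1, 2 and 3 and 851, 826 and 822 CPM in BCP libraries 1, 2 and 3. Its lowest sham library thus lay well above its highest BCP library, and it fell by 22.7% (log2FC -0.37, standard error 0.04, edgeR adjusted p = 8.03e-07). Acat2, the cytosolic thiolase that supplies acetoacetyl-CoA, had 43.1, 44.1 and 40.1 CPM in the sham libraries and 32.6, 34.0 and 33.7 CPM in the BCP libraries (log2FC -0.34, edgeR adjusted p = 0.00196). The kinases of the pathway behaved alike in direction and size. Mvk, mevalonate kinase, held within 21.4 CPM in each sham library and had 17.7, 16.6 and 17.0 CPM in the BCP libraries (log2FC -0.32), and its call was lost with DESeq2 and without BCP replicate 2 (adjusted p = 0.0508 and 0.0585). Pmvk, phosphomevalonate kinase, had 52.5, 54.3 and 61.4 CPM in the sham and 47.3, 45.7 and 42.8 CPM in the BCP libraries (log2FC -0.31, edgeR adjusted p = 0.00385).

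The isoprenoid steps followed. Idi1, the isomerase that balances the isoprenoid building units, had 165, 162 and 164 CPM in the sham and 148, 139 and 145 CPM in the BCP libraries, a fall by 12.1%. Fdps, which joins these units to farnesyl pyrophosphate, had 213, 221 and 206 CPM against 188, 188 and 178 CPM, a fall by 13.4%. For each of these enzymes the groups did not overlap, and the edgeR adjusted p-values were 0.00532 and 0.00220. Mvd, which makes the first isoprenoid unit by decarboxylation, had 41.9, 49.2 and 41.1 CPM in the sham libraries and 42.4, 41.0 and 33.6 CPM in the BCP libraries. These groups overlapped, and the 95% interval of its log2FC, from -0.38 to 0.02, included falls of the size of the neighboring enzymes.

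From squalene synthesis on, 10 of the 11 member enzymes fell, with log2FC from -0.55 to -0.24 among those called and a median of -0.29 over the 11. Fdft1, squalene synthase, had 234, 235 and 226 CPM in the sham libraries and 197, 195 and 193 CPM in the BCP libraries, and Sqle, the oxygenase that follows it and limits flux, had 227, 210 and 204 CPM against 183, 180 and 180 CPM. The BCP libraries of both genes lay close together, with SDs under those of the sham libraries, and the falls were 15.8% and 15.3%. Lss, lanosterol synthase on chromosome 20 (12842884 to 12870497), which closes the sterol rings, had 79.8, 87.4 and 64.9 CPM in the sham and 58.6, 51.0 and 49.3 CPM in the BCP libraries. Lss had the largest log2FC of a called member, -0.55, and also a large standard error of 0.11 (edgeR adjusted p = 0.00605). Sham replicate 3 lay nearer to the BCP libraries than the other sham libraries did.

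Of the member enzymes that turn lanosterol into cholesterol, all but Ebp fell. Cyp51 (chromosome 4, 27175243 to 27194018), the lanosterol demethylase, had 629, 607 and 611 CPM in the sham libraries and 467, 480 and 449 CPM in the BCP libraries, a fall by 24.4% with the smallest p-value of any member (edgeR adjusted p = 3.88e-07). Msmo1, the methyl sterol oxidase, had 188, 194 and 187 CPM against 147, 138.5 and 147 CPM, a fall by 23.9% (edgeR adjusted p = 2.46e-06). The groups were well separated for both genes, as they were for Hmgcs1. Sc5d, the sterol desaturase, had 511, 497 and 524 CPM in the sham libraries and 416, 420 and 415 CPM in the BCP libraries (log2FC -0.29). Dhcr7, whose enzyme reduces the last precursor of cholesterol in one of the branches of the pathway, had 54.5, 63.3 and 51.7 CPM against 43.5, 41.3 and 42.5 CPM (log2FC -0.41). Tm7sf2, a sterol reductase, had 34.2, 32.5 and 29.8 CPM against 25.3, 22.2 and 24.0 CPM (log2FC -0.43). The groups did not overlap for any of these genes.

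Nsdhl and Hsd17b7, which act with Msmo1 to remove methyl groups, fell by 16.3% and 17.7%. Nsdhl had 53.0, 52.7 and 52.6 CPM in the sham and 43.8, 43.5 and 45.2 CPM in the BCP libraries, and Hsd17b7 had 35.8, 36.0 and 33.7 CPM against 28.7, 27.4 and 30.7 CPM. The call of Hsd17b7 was lost without sham replicate 2 and without BCP replicate 2 (edgeR adjusted p = 0.0521 and 0.0801). Ebp, the sterol isomerase, was the only member of this stretch that did not pass the test. It had 16.1, 16.2 and 12.4 CPM in the sham libraries and 13.5, 13.7 and 11.6 CPM in the BCP libraries, so sham replicate 3 lay below a pair of the BCP libraries, and the 95% interval of its log2FC reached from -0.47 to 0.07.

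**Figure D2:**
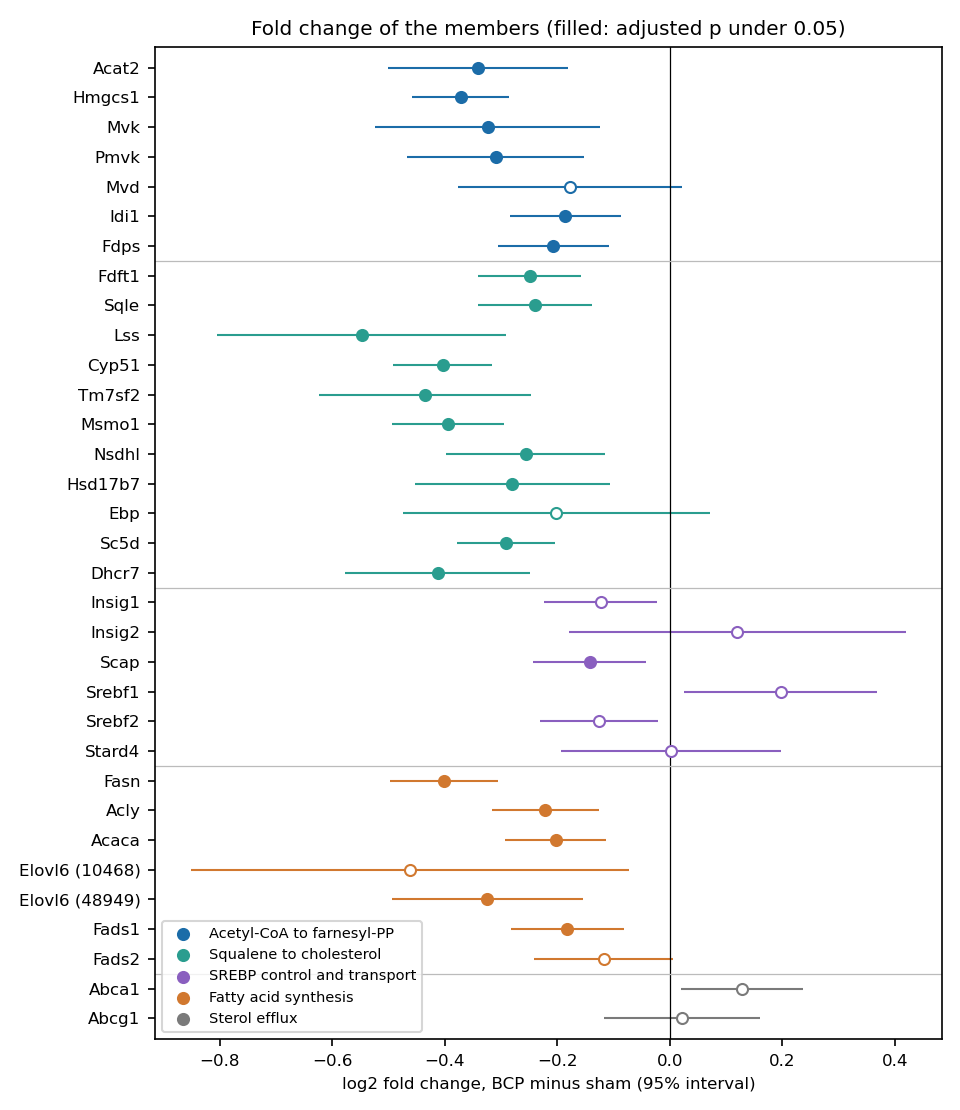
Log2FC of the members, BCP minus sham, from the edgeR fit over all genes tested, with 95% intervals and colors for the roles. Filled points mark an adjusted p-value under 0.05, and the 22 filled points all lie left of 0, between -0.55 and -0.14.

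Of the 6 genes of SREBP, its control and sterol transport, 1 was called, and their log2FC went in both directions. Scap, the escort of SREBP, had 160, 173 and 162 CPM in the sham libraries and 151, 148 and 148 CPM in the BCP libraries, a fall by 9.40% (edgeR adjusted p = 0.0324). That call depended on the settings, since it was lost under 8 of 13 alternatives, with an adjusted p-value of up to 0.140. Srebf2, which encodes SREBP-2, had 408, 446 and 407 CPM against 360, 399 and 397 CPM, and Insig1, itself an SREBP target, had 151, 149 and 152 CPM against 139, 133 and 143 CPM. For both genes every BCP library lay below every sham library, but the log2FC of -0.13 and -0.12 did not pass the test (edgeR adjusted p = 0.0701 and 0.0645), and both passed it with upper-quartile scaling (adjusted p = 0.0196 and 0.0187). Neither passed under any other alternative, where the adjusted p reached 0.319 for Srebf2 and 0.267 for Insig1, and the log2FC of Srebf2 was -0.07 without BCP replicate 1 and -0.08 without sham replicate 2.

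Srebf1, which encodes SREBP-1, had a log2FC of the opposite sign. Its levels were 60.6, 73.5 and 63.5 CPM in the sham libraries and 70.3, 83.8 and 72.2 CPM in the BCP libraries, so sham replicate 2 lay above a pair of the BCP libraries. The log2FC was 0.20 (95% interval 0.02 to 0.37, edgeR adjusted p = 0.0851), and it passed the test without sham replicate 2, without BCP replicate 1 and with the replicate number as a block (adjusted p = 0.0159, 0.0420 and 0.0295). It did not pass under the other 10 alternatives, and without BCP replicate 2 the log2FC was 0.12 (adjusted p = 0.354). Insig2, the second retention protein, had 16.6, 12.99 and 10.7 CPM in the sham libraries and 13.4, 15.1 and 15.1 CPM in the BCP libraries, with more spread among the sham libraries than between the groups. Stard4, a carrier of sterol between membranes, had 26.1, 31.2 and 29.5 CPM against 30.7, 26.4 and 30.1 CPM, and its log2FC of 0.00 had a 95% interval from -0.19 to 0.20.

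Among the enzymes of fatty acid synthesis, 5 of 7 rows fell, with a median log2FC of -0.22 over the 7. Fasn (chromosome 10, 109987735 to 110005901), the fatty acid synthase, had 889, 947 and 843 CPM in the sham libraries and 694, 679 and 656 CPM in the BCP libraries, a fall by 24.3% (log2FC -0.40, standard error 0.05, edgeR adjusted p = 1.22e-06). Acly, which makes cytosolic acetyl-CoA for both pathways, had 676, 705 and 628 CPM against 590, 567 and 568 CPM, a fall by 14.2%. Acaca, the carboxylase that makes malonyl-CoA, had 241, 243 and 242 CPM against 209, 211 and 211 CPM, a fall by 13.1%. Fasn thus had the largest of these falls, and Acaca the least spread within a group among the 3 genes.

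Of the genes that lengthen and desaturate fatty acids, Elovl6, the elongase of saturated chains, was listed at 2 loci on chromosome 2. The row at 234375315 to 234483149 had 51.5, 48.5 and 53.5 CPM in the sham and 41.7, 36.4 and 44.7 CPM in the BCP libraries, a fall by 20.1% (edgeR adjusted p = 0.00463). The row at 234189105 to 234296145 had fewer reads, with 7.63, 9.85 and 6.69 CPM against 6.85, 4.86 and 5.91 CPM, and overlapping groups (log2FC -0.46, edgeR adjusted p = 0.0727). It passed the test with upper-quartile scaling, without sham replicate 3 and without BCP replicate 1 (adjusted p = 0.0474, 0.0383 and 0.0434), whereas without sham replicate 2 its log2FC was -0.29 (adjusted p = 0.348). Reads that match both loci could have been divided between the rows, so their levels are uncertain. Fads1, a front-end desaturase of polyunsaturated chains, had 168, 178 and 175 CPM against 159, 152 and 149 CPM, a fall by 11.9% (edgeR adjusted p = 0.00699). Its neighbor Fads2, the desaturase of an earlier step, had 70.7, 73.4 and 69.0 CPM against 66.1, 65.5 and 64.8 CPM, which did not pass the test (log2FC -0.12, edgeR adjusted p = 0.156) although the groups did not overlap.

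Neither exporter of sterol, both targets of LXR, was called. Abca1, which loads cholesterol onto apolipoproteins, had 143, 140 and 135 CPM in the sham libraries and 157, 143 and 157 CPM in the BCP libraries, and BCP replicate 2 lay just under the highest sham library. Its log2FC was 0.13 (95% interval 0.02 to 0.24, edgeR adjusted p = 0.0726), and it passed the test without BCP replicate 2 and with library size only (adjusted p = 0.0289 and 0.0172) and under no other alternative, where the adjusted p reached 0.238. Abcg1 had 69.2, 68.2 and 74.3 CPM against 78.0, 70.1 and 67.0 CPM, with overlapping groups and a 95% interval from -0.12 to 0.16.

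Levels per length, as the authors' FPKM, spanned a wide range among the members. Hmgcs1 was the most abundant, with 330 ± 12.4 FPKM in the sham libraries and 262 ± 2.95 FPKM in the BCP libraries (SD, n = 3), followed by Cyp51 with 181 ± 2.80 and 141 ± 4.62 FPKM. Acly had 120 ± 7.02 FPKM in the sham libraries, Sc5d 103 ± 2.71, Msmo1 101 ± 2.30 and Fasn 96.2 ± 5.74 (SD, n = 3), and the SD ranges of the last 3 overlapped. The lowest level of a sterol enzyme was that of Hsd17b7, with 8.78 ± 0.316 FPKM, followed by Lss with 10.8 ± 1.603 FPKM. Srebf2 exceeded Srebf1, with 67.7 ± 3.74 against 14.6 ± 1.56 FPKM, and Insig1 exceeded Insig2, with 61.3 ± 0.683 against 13.3 ± 2.94 FPKM in the sham libraries (SD, n = 3). Called falls were found from the top of this range to near its bottom.

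**Figure D3:**
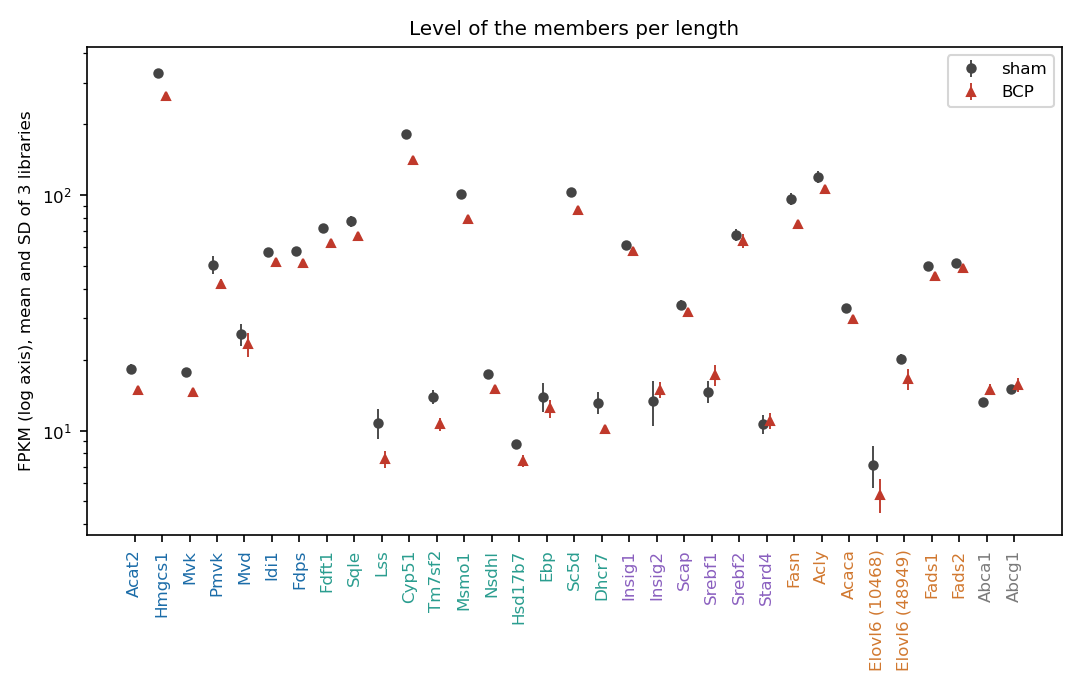
Level of each member per length in FPKM as the authors calculated it, on a log axis, with the mean and SD of the 3 sham libraries as circles and of the 3 BCP libraries as triangles. Names are colored by role as in the plot of levels by library. Hmgcs1 has the highest level, 330 FPKM in the sham libraries, and the less abundant row of Elovl6 the lowest, 7.14 FPKM.

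Summed over their genes, the 7 enzymes up to farnesyl pyrophosphate fell in CPM from 1619 ± 48.3 to 1297 ± 28.2, the 11 later sterol enzymes from 2030 ± 33.1 to 1608 ± 18.6 and the fatty acid rows from 2109 ± 94.1 to 1727 ± 35.5 (SD, n = 3), that is, by 19.9%, 20.8% and 18.1%. Abundant genes weigh most in such sums. In the sham mean Hmgcs1 held 1078 CPM of the first sum, and Fasn and Acly held 893 and 670 CPM of the fatty acid sum. These sums stood apart in all libraries, for example at 1997 to 2063 CPM in the sham and 1588 to 1624 CPM in the BCP libraries for the later sterol enzymes. With 3 against 3 libraries the smallest p-value of an exact permutation test is 0.1, so no test of the sums was made. The sum of the regulators was 844 ± 35.4 and 792 ± 23.8 CPM, and that of the exporters 210 ± 2.38 and 224 ± 10.8 CPM (SD, n = 3). Sham and BCP libraries stood apart here too, at 822 to 885 and 764.5 to 806 CPM for the regulators. For the exporters they lay at 208.1 to 212.5 and 213.0 to 234.5 CPM. Even the sum over all genes tested did not overlap, with 1011100 to 1018400 CPM in sham and 980570 to 994970 CPM in BCP libraries. Separation of a sum was thus not particular to the enzymes.

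Further genes of the pathways were counted from lists of names. Of 21 tested genes of other sterol synthesis and SREBP control, 4 fell and 3 rose, against 12.1% and 15.8% of all genes tested, so both counts were near the background. With upper-quartile scaling 7 fell and 1 rose. Lbr, a nuclear membrane protein with sterol reductase activity, rose with a log2FC of 0.46 and Rnf139, a sterol-sensing ubiquitin ligase, with 0.26. The remaining riser was Mbtps2, a protease that releases SREBP from the membrane, with a log2FC of 0.22 (edgeR adjusted p = 0.0404), named after its value was seen, and the number of rising genes in this list was between 0 and 4 when libraries were left out.

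Of 28 tested genes of other fatty acid synthesis, 13 fell and 4 rose, with a median log2FC of -0.15. Of all genes tested 12.1% fell and 15.8% rose, so the number that rose was near the background. Scd1 and Scd2, desaturases that make monounsaturated chains, had log2FC of -0.62 and -0.40, with Scd2 at 7826, 7635 and 7621 CPM in sham libraries 1, 2 and 3 and 6092, 5644 and 5785 CPM in BCP libraries 1, 2 and 3. These genes are closely related paralogs, so reads may have been divided between them. Fa2h, which makes the hydroxylated fatty acids of myelin lipids, fell with a log2FC of -0.56 (standard error 0.05, edgeR adjusted p = 1.51e-08) and Acss2, an acetyl-CoA synthetase, with -0.37. Acsl5, an acyl-CoA synthetase, rose with a log2FC of 0.68 and Mlxipl, the carbohydrate-responsive regulator of lipogenic genes, with 1.06.

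Of 32 tested genes of sterol export, storage, uptake and turnover, 8 rose and 9 fell, with a median log2FC of -0.01, against 15.8% and 12.1% of all genes tested, and 5 fell without sham replicate 2. Ch25h, which makes an oxysterol that activates LXR and restrains SREBP, had 4.42, 2.58 and 1.96 CPM in the sham libraries and 25.5, 35.8 and 33.6 CPM in the BCP libraries (log2FC 3.42, standard error 0.25, edgeR adjusted p = 2.83e-05). Soat1, which esterifies cholesterol for storage, rose with a log2FC of 0.97, Plin2, a coat protein of lipid droplets, with 0.98, and Lipa, the lysosomal lipase of cholesteryl esters, with 0.44. Tspo, a protein of the outer mitochondrial membrane that rises in reactive microglia, had 1.53, 1.54 and 0.743 CPM against 4.40, 6.43 and 8.41 CPM. Apoe, the main apolipoprotein of the central nervous system, fell with a log2FC of -0.25 (edgeR adjusted p = 9.70e-05). Genes of this list thus changed in both directions.

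**Figure D4:**
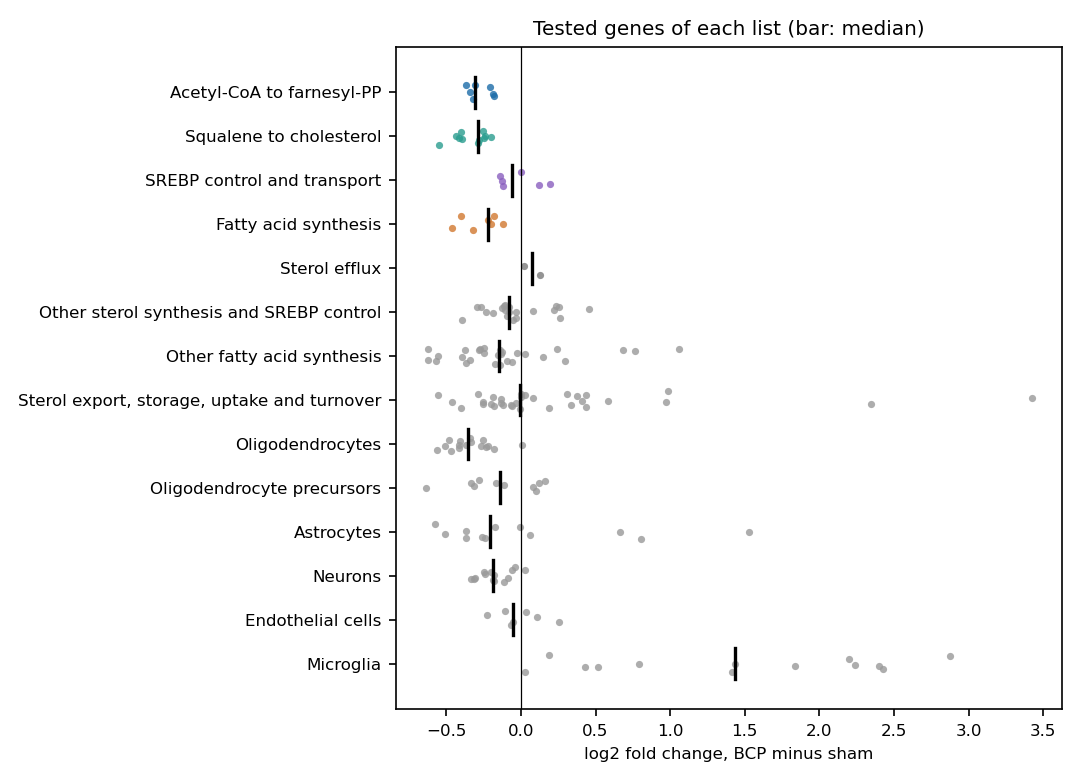
Log2FC, BCP minus sham, of every tested gene of the member roles (colored) and of the other lists (gray), with a bar at the median of each list. The medians of the sterol enzymes, -0.31 and -0.29, and of the fatty acid rows, -0.22, lie left of 0, as does that of the oligodendrocyte markers, -0.36, and the median of the microglia markers is 1.44.

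Markers of the cells that make myelin moved with the enzymes. Of 16 tested oligodendrocyte markers 14 fell and none rose, against 12.1% and 15.8% of all genes tested, with a median log2FC of -0.36. Their summed CPM was 42079 to 47598 in the sham libraries and 30558 to 33873 in the BCP libraries, lower by 28.8% in the mean. Mbp and Mobp, abundant myelin proteins among them, had log2FC of -0.56 and -0.41. Not every marker of the list fell, and Aspa, an enzyme of oligodendrocytes, had a log2FC of 0.00 (edgeR adjusted p = 0.967). In bulk tissue fewer cells of a type and less RNA per cell cannot be told apart. The part of these cells in the fall of the enzymes was not tested.

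Other cell types were described in the same way, beside 12.1% of all genes tested that fell and 15.8% that rose. Of 10 tested precursor markers 4 fell and 1 rose (median log2FC -0.14), and of 14 neuron markers 8 fell and none rose (median -0.19). Of 12 astrocyte markers 7 fell and 1, Gfap, rose (median -0.21). The summed CPM of the astrocyte markers went the other way, from 8697 to 9003 in the sham libraries and from 9515 to 11695 in the BCP libraries. Abundant genes weigh most in that sum, and the log2FC of these markers spanned -0.58 to 1.53, so the sum does not describe most of them. The single risers among precursor and astrocyte markers were not beyond the background. Of 13 tested microglia markers 10 rose (median 1.44), among them Csf1r, Sall1 and C1qc with log2FC of 1.44, 0.43 and 2.88, and of 7 tested monocyte and macrophage markers 2 rose. All 8 T cell markers rose, with a summed CPM of 6.08 to 6.77 in the sham and 52.0 to 58.3 in the BCP libraries. None of the 7 endothelial, 7 nerve root, 2 adipocyte and 1 skeletal muscle markers tested was called. Of 7 markers of meninges and fibroblasts 1 fell, near the background. The part of these cells in the values of the members was not tested.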

How the data were processed

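RNA-seq was performed on 6 libraries, and each was assigned to its group and replicate from its title. Per the labels and the paper, the reads were filtered with Seqtk, mapped to Rnor_6.0 with Hisat2 2.0.4 and quantified with Stringtie 1.3.0. The authors deposited unnormalized counts per gene and, beside them, their FPKM values. How reads were assigned to genes, whether strand was used and how multiply mapped reads were handled is not given in the sources used here, so overlapping and near-identical genes are uncertain. The deposited table of lncRNAs was not used here.

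The test was that of edgeR 4.0.16 (R 4.3.3), applied to these counts with TMM normalization (factors 0.982 to 1.02), edgeR's filter by expression (14908 genes left), a robust quasi-likelihood fit on condition alone and Benjamini-Hochberg adjustment over all genes tested. CPM were scaled by the TMM-adjusted library totals. Standard errors came from the log2FC and the F statistic. The thresholds, an adjusted p-value under 0.05 and a fold change over 2, are those of the study. The common biological coefficient of variation was 7.72%. Intervals on the members cover the spread between these libraries. The counts of any 2 libraries of a group differed beyond counting noise (chi-square over its degrees of freedom, 3.61 to 6.33). The code was tested on simulated counts with a common dispersion for all genes. The fold changes set there were larger than those of the called members, so changes of the members' size were not covered. Alternatives were RLE, upper-quartile and no normalization factors, no filter, at least 10 counts in every library, DESeq2 1.42.0, the replicate number as a block and each library left out in turn. Members, lists and tests were chosen with earlier results of these data known. Named genes were all members, the 6 genes with the smallest p-values of each list of other pathway genes and, of the cell type lists, the 3 most abundant markers, printed for oligodendrocytes and microglia, and some of the genes so chosen are not reported here. Gfap and Aspa were named after their values were seen. Promoter windows came from RefSeq on GRCr8, and the letters searched were chosen after the fits. Plots were made in Python 3.11.15 (matplotlib 3.10.9).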

Additional observations from a re-analysis of the deposited data

How the results depend on the processing

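Of the 22 members called lower 19 stayed lower with an adjusted p-value under 0.05 under all 13 alternatives, and the others were Scap, Mvk and Hsd17b7. Leaving out each library in turn gave 19 to 22 members lower, 0 to 1 higher and 0 past 2-fold. The number of members higher was 1 with library size only (Abca1) and 1 with the replicate block (Srebf1). Among other sterol synthesis and SREBP control genes the number higher was 1 with upper quartile, 1 with DESeq2, 1 with the replicate block and 0 to 4 without single libraries (1 without sham replicate 2, 0 without sham replicate 3, 1 without BCP replicate 2 and 1 without BCP replicate 3), and the number lower was 7 with upper quartile. Among genes of sterol export, storage, uptake and turnover the number lower was 5 to 8 without single libraries, with 5 without sham replicate 2. Signs turned for 3 members that were not called: Stard4 (log2FC -0.0336 with upper quartile, -0.0015 with no filter, -0.067 to 0.0706 without single libraries), Abcg1 (-0.0137 with upper quartile, -0.0343 to 0.0674 without single libraries) and Insig2 (-0.0231 to 0.2978 without single libraries). The cause was not tested. The median log2FC of all genes lay between -0.05 with upper quartile and 0.03 with library size only. Libraries of the same number did not deviate together (correlations -0.11, 0.04 and -0.04 over genes), so the replicate block reflects only a shared number, and with it 21 members were lower. With 3 libraries a group, changes as small as that of Scap are at the limit of the test.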
